A study of Mus musculus with 18 samples.

Results

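Pilra, Plac8, Dnase1l3, Apol10b, Cbr2, Hopx and Jph2 are 7 of the 18909 genes measured in an RNA-seq study of 2 C57BL6-derived mouse cancer cell lines that overexpressed MRTFA or MRTFB. The 7 were selected on their values in the B16F10 MRTFA and control libraries, as non-contractile genes that were at or near 0 with the empty vector and higher with MRTFA; the rule states no numeric limit. Their difference in that pair of groups is therefore given as a description and is not tested. B16F10 is a melanoma line and E0771 a mammary tumour line, and each was measured with an MRTFA transgene, with an MRTFB transgene and with the pRetrox control vector, in 3 libraries per group and 18 in all. Every group, controls included, received doxycycline at 500 ng/mL for 48 hours, which switches the transgenes on. Nothing in the labels ties the 3 replicates to separate cultures or a line to 1 clone, so p-values measure only the spread between these libraries. The species and form of the transgenes are not described either.

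Serum response factor (SRF) works with MRTFA and MRTFB as coactivators. Monomeric actin holds them in the cytoplasm, and when actin polymerises they enter the nucleus, join SRF at CArG boxes and raise genes of the cytoskeleton and of smooth muscle. In bulk RNA of this kind, fewer expressing cells and less RNA per cell cannot be told apart. The 7 genes belong to unrelated families. Pilra encodes an inhibitory paired immunoglobulin-like receptor of myeloid cells, Plac8 a small cysteine-rich protein found in placenta and immune cells, and Dnase1l3 a secreted nuclease of macrophages and dendritic cells that digests chromatin. Apol10b is a member of the apolipoprotein L family, and Cbr2 is a carbonyl reductase of mouse lung. Hopx encodes a homeodomain-only protein that does not bind DNA and interacts with SRF and Hdac2, and Jph2 encodes junctophilin 2, which tethers the plasma membrane to the sarcoplasmic reticulum in heart muscle. The description of the set as non-muscle genes therefore does not apply to Jph2, and Hopx is best known from the heart. Cbr2 departed from the rule in another way, since its B16F10 controls held 41, 23 and 123 reads.

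All 7 are protein-coding genes on the minus strand of GRCm38 (GENCODE M21). Pilra lies on chromosome 5 from 137821952 to 137836281, Plac8 on chromosome 5 from 100553725 to 100572245, and Hopx on chromosome 5 from 77086988 to 77115121. Apol10b spans 77583819 to 77596125 on chromosome 15 and Dnase1l3 spans 7964533 to 7994573 on chromosome 14. Cbr2 spans 120729489 to 120732114 on chromosome 11, and Jph2 spans 163336242 to 163397993 on chromosome 2. Pilra overlaps Zcwpw1 and Hopx overlaps the antisense gene Hopxos, both on the opposite strand. The strand setting of the counting is not known, so reads of such pairs cannot be told apart; Zcwpw1 held at most 121 reads in a library and Hopxos at most 6.

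The binding letters of SRF were looked for in the 250 bases before the RefSeq starts of 6 of the 7 genes (GRCm38.p6; 9 windows). A CArG box here is 2 C, then 6 bases that are each A or T, then 2 G, a pattern whose reverse complement is of the same form, so 1 pass covers both strands. An exact match stood in 2 of the 9 windows, those of Cbr2 and Hopx, against 482 of all 32851 windows (1.47%). A match with at most 1 mismatch stood in 7 of the 9 windows, against 6117 of all windows (18.6%). The 2 Jph2 windows overlap and share their match. The stretches that lie outside the GENCODE gene are printed 5′ to 3′ on the minus strand, for the 2 genes with an exact match and for the 2 genes with the largest E0771 response, with every match of at most 1 mismatch in capitals. They are chr11:120732115-120732271 (Cbr2), chr5:77115124-77115373 (Hopx), chr5:100572246-100572455 (Plac8) and chr5:137836282-137836528 (Pilra).
Cbr2: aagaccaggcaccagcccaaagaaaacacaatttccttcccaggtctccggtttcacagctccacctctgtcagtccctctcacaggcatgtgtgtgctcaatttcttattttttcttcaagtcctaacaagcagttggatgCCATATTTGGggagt
Hopx: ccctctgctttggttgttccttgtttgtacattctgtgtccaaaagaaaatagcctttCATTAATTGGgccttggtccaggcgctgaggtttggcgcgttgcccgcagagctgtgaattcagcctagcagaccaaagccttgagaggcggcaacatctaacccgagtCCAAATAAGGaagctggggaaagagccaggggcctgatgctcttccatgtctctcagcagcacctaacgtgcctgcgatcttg
Plac8: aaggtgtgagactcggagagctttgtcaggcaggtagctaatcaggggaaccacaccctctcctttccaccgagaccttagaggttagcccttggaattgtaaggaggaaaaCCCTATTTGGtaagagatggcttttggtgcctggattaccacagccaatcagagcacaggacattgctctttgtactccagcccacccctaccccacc
Pilra: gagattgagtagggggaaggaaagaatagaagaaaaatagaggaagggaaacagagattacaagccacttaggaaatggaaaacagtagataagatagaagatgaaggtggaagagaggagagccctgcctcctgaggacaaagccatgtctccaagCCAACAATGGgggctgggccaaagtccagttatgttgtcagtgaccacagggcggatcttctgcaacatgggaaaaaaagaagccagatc
The Cbr2 match CCATATTTGG begins 108 bases before the RefSeq start. Hopx has the exact match CCAAATAAGG 83 bases before its start, beside CATTAATTGG with 1 mismatch. Plac8 (CCCTATTTGG), Pilra (CCAACAATGG), Apol10b (CCGTAAAAGG) and Jph2 (CCTTGTTAGG) each hold a match with 1 mismatch. A match describes letters in a window and is neither a bound site nor a cause of a level.

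Depth was similar throughout, from 27607055 to 37116655 reads per library. Values are given as whole reads and as scaled reads, which are the deposited counts divided by a DESeq size factor of the library. Melanocyte markers summed to between 695552 and 922714 scaled reads in the B16F10 libraries and to between 1328 and 3876 in the E0771 libraries, and mammary epithelial markers to between 57.2 and 232.7 in B16F10 and between 5851 and 17054 in E0771. Mkl1, the table's name for the gene of MRTFA, had 12469, 16557 and 12160 scaled reads in E0771 MRTFA libraries and 1124, 1514 and 1408 in E0771 controls. In B16F10 it had 1398, 902 and 1314 in MRTFA libraries and 1109, 987 and 950 in controls, which overlap (limma adjusted p = 0.856), so this gene does not check the B16F10 MRTFA labels. Mkl2, the gene of MRTFB, had 2056, 2206 and 2211 scaled reads in E0771 MRTFB libraries against 1235, 1350 and 1446 in controls, and 1964, 1738 and 1955 in B16F10 MRTFB libraries against 1290, 1333 and 1881 in controls, where the groups overlap.

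In B16F10, MRTFA libraries held between 82 and 1651 reads of each of the 7 genes, 6 of which had at most 8 reads in any control. Plac8 had 113, 90 and 134 reads in MRTFA libraries and 0, 0 and 0 in controls. Dnase1l3 had 156, 109 and 121 reads in MRTFA libraries and 0, 0 and 0 in controls. Hopx had 97, 82 and 151 reads in MRTFA libraries and 0, 0 and 0 in controls. For these 3 genes the control group has no read at all, so the fold can only be bounded: against a floor of 3 reads over the control group, Plac8 was at least 116-fold higher, Dnase1l3 at least 133-fold higher and Hopx at least 114-fold higher with MRTFA. A library with no read of a gene allows up to 0.0808 to 0.109 CPM (reads of the gene scaled to the library's total), depending on its depth, and this limit covers counting error only.

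Pilra was the most abundant of the 6 genes that were close to 0 in controls. It had 618, 542 and 831 reads in MRTFA libraries and 0, 1 and 0 in controls, a depth-corrected ratio of pooled reads of 2062 with a 95% exact binomial interval of 369.7 to 81486 that rests on the single control read. Apol10b had 186, 156 and 389 reads in MRTFA libraries and 0, 0 and 3 in controls, a ratio of 252 (86.0 to 1227). In both, every MRTFA library stood far above every control. All Apol10b control reads came from replicate 3.

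Jph2 and Cbr2 had reads in the controls. Jph2 had 388, 229 and 568 reads in MRTFA libraries and 6, 0 and 8 in controls, and averaged 389.9 ± 152 scaled reads with MRTFA and 4.47 ± 3.98 in controls (SD, n = 3 each), a ratio of means of 87.2. Cbr2 had 1175, 602 and 1651 reads in MRTFA libraries and 41, 23 and 123 in controls, with means of 1127 ± 478 and 59.7 ± 50.7 scaled reads (SD, n = 3 each) and a ratio of 18.9. The MRTFA and control libraries did not overlap for either gene. Without control replicate 3 the ratio was 36.5 for Cbr2 and 135 for Jph2. Over all 13517 genes tested in B16F10, limma called 1.34% higher and 0.207% lower with MRTFA, 209 genes in all, and 855 with the replicate number as a block. No call is given for the 7, since this contrast chose them.

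**Figure D1:**
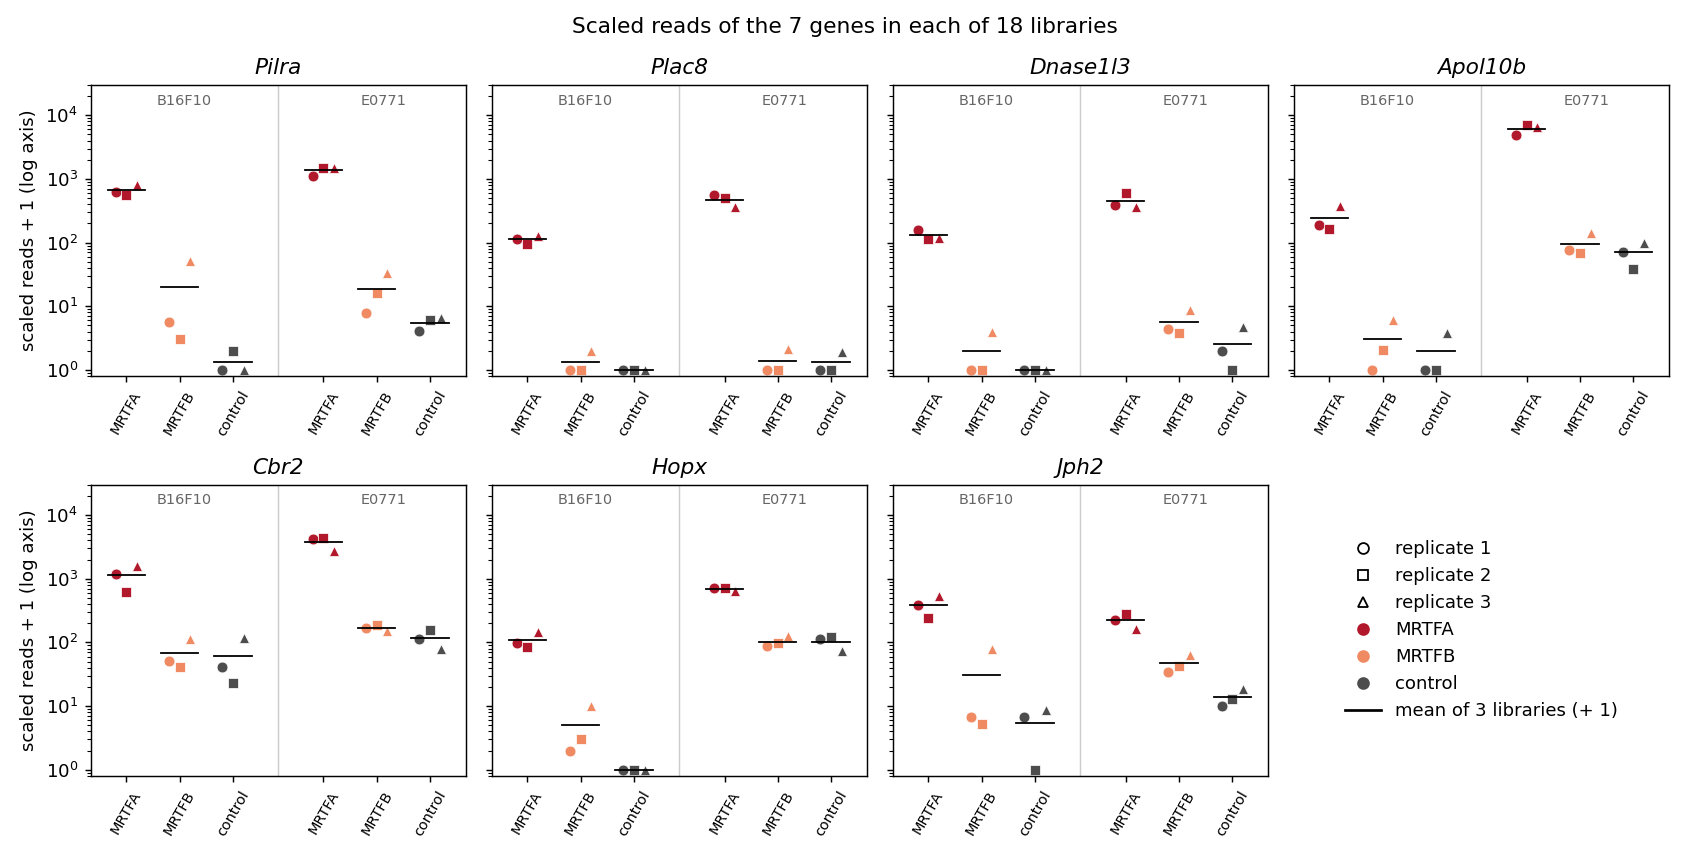
Scaled reads plus 1 (log axis) of the 7 genes in each of the 18 libraries, by cell line and by MRTFA, MRTFB and control group; symbols mark the replicate number and bars the mean of 3 libraries. In both lines the 3 MRTFA libraries lie above all MRTFB and control libraries for each of the 7 genes, and in B16F10 the MRTFB library with the highest value is replicate 3.

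Per kilobase of exon, Cbr2 was the most abundant of the 7 in B16F10 MRTFA cells at a mean of 849.5 scaled reads per kb, followed by Pilra at 213.2, Apol10b at 103.2, Jph2 at 91.6, Hopx at 71.8, Plac8 at 70.1 and Dnase1l3 at 24.9. In E0771 MRTFA cells the order on the same scale was Cbr2 at 2854, Apol10b at 2650, Hopx at 453, Pilra at 439.6, Plac8 at 297.7, Dnase1l3 at 86.7 and Jph2 at 52.4. Cbr2 led and Dnase1l3 stood near the end in both lines, whereas Jph2 was last in E0771; these orders of levels were not tested.

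The rule that names the 7 used no E0771 library, but the 7 were proposed with earlier results of these data known, E0771 included, so their values there are not independent evidence. In E0771 MRTFA cells limma called the 7 genes higher than in controls, where 20.3% of the genes tested were called higher and 18.1% lower. The test gave adjusted p-values of 2.43e-07 to 5.37e-06 for the 7 (two-sided, Benjamini-Hochberg over 13189 genes). All 3 MRTFA libraries were above all 3 controls for each gene, a separation whose share over all genes was not counted. The 7 stayed called under the alternatives tried, the fit with no filter on low values among them. Pilra, Plac8 and Dnase1l3 passed that filter through their MRTFA libraries alone, so they had to differ to be tested; the other 4 reached it without those libraries. Under upper-quartile scaling the split over all genes was 2447 higher and 3026 lower, against 2677 and 2387 with the deposited scaling. By fitted size the 7 ranked between 25 (Plac8) and 573 (Hopx) of the 13189 genes.

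Plac8 and Dnase1l3 were close to silent in E0771 controls too. Neither would have passed the filter without its MRTFA libraries, so their p-values are a description. Plac8 had 566, 539 and 342 reads in E0771 MRTFA libraries and 0, 0 and 1 in controls. Its fitted log2 difference was 8.55 (SE 0.42; limma adjusted p = 2.43e-07), and its ratio of reads was 1459, with a counting interval of 261.4 to 57652. Dnase1l3 had 384, 640 and 347 reads in MRTFA libraries and 1, 0 and 4 in controls, a log2 difference of 7.69 (SE 0.54; limma adjusted p = 2.05e-06). Every MRTFA library held at least 342 Plac8 reads and at least 347 Dnase1l3 reads, while no control held more than 4 of either.

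Pilra had 1128, 1601 and 1401 reads in E0771 MRTFA libraries and 3, 5 and 6 in controls, a log2 difference of 7.96 (SE 0.45; limma adjusted p = 4.68e-07). It too would not have passed the filter without its MRTFA libraries. Apol10b had 4915, 7483 and 6350 reads in MRTFA libraries and 70, 38 and 106 in controls, a log2 difference of 6.54 (SE 0.35; limma adjusted p = 3.57e-07). Apol10b was the gene whose E0771 MRTFA level exceeded that of B16F10 MRTFA by the largest factor among the 7, with means of 6161 ± 1107 scaled reads in E0771 MRTFA and 239.97 ± 114 in B16F10 MRTFA (SD, n = 3 each), a ratio of 25.7 that was not tested. Pilra differed less between the lines, at 1358 ± 204 scaled reads in E0771 MRTFA and 658.8 ± 120 in B16F10 MRTFA (SD, n = 3 each).

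Cbr2, Hopx and Jph2 had measurable levels in E0771 controls. Cbr2 had 4255, 4776 and 2570 reads in MRTFA libraries and 111, 156 and 84 in controls, a log2 difference of 5.04 (SE 0.26; limma adjusted p = 2.77e-07). Jph2 had 227, 304 and 154 reads in MRTFA libraries and 9, 12 and 19 in controls, a log2 difference of 4.02 (SE 0.32; limma adjusted p = 5.37e-06). Hopx had 712, 755 and 621 reads in MRTFA libraries and 111, 119 and 76 in controls, a log2 difference of 2.79 (SE 0.22; limma adjusted p = 4.22e-06). Hopx had the smallest difference of the 7, and its controls differed between the lines, with 306 reads over the 3 E0771 controls against 0 over the 3 B16F10 controls. Jph2 was the only one of the 7 whose E0771 and B16F10 MRTFA libraries overlapped. The other 6 were higher in every E0771 MRTFA library than in any B16F10 MRTFA library. How large a share of all genes separates in this way between the lines was not counted.

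**Figure D2:**
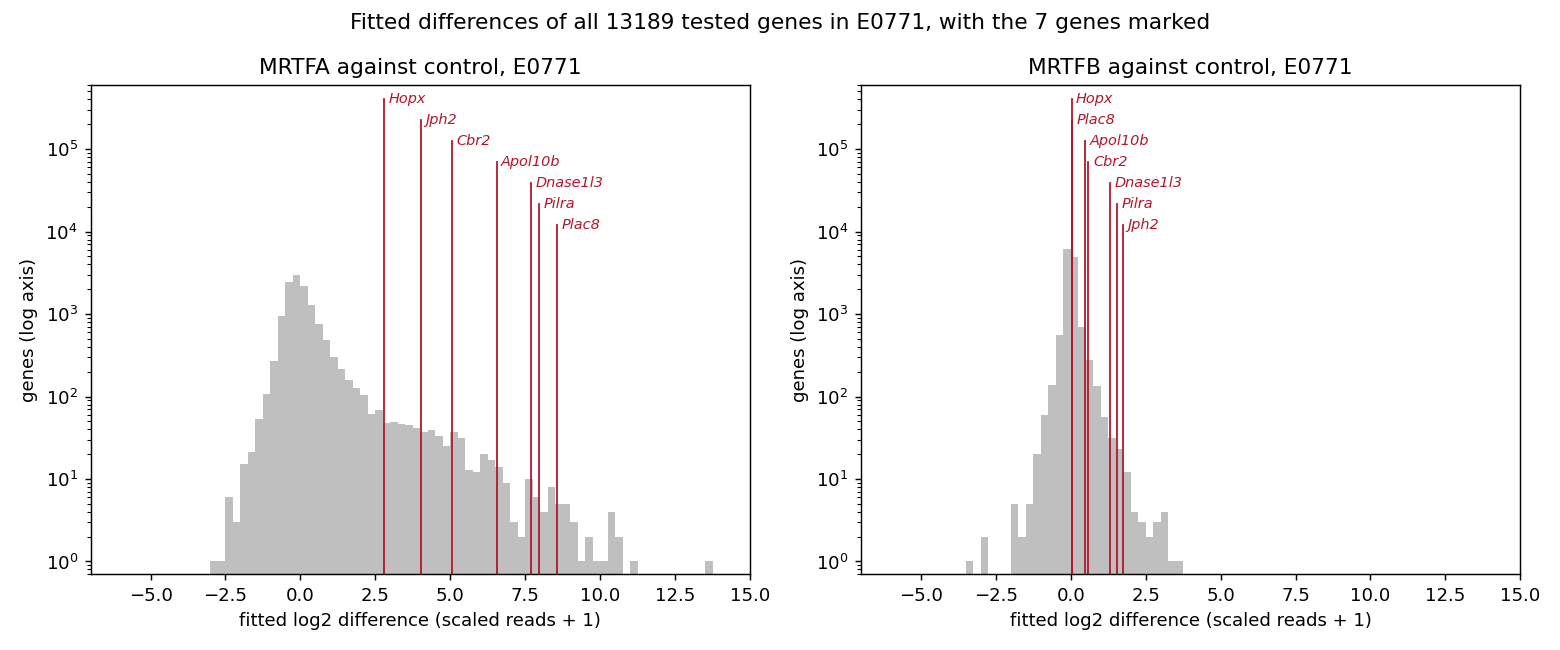
Number of genes (log axis) by fitted log2 difference in E0771, for MRTFA against control (left) and MRTFB against control (right), over 13189 tested genes; red lines mark the 7 genes. With MRTFA the 7 lie between 2.79 and 8.55, and with MRTFB between 0.03 and 1.75.

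With MRTFB in E0771, none of the 7 genes passed the limma test, where 0.136% of the genes tested were called higher (18 of 13189) and 0.00758% lower. The unadjusted p was under 0.05 for 4 of the 7 (Jph2, Pilra, Dnase1l3 and Cbr2). The edgeR test called 0 and DESeq2 called 2, Jph2 (adjusted p = 0.0028) and Pilra (adjusted p = 0.0228). With the replicate number as a block limma called 0 of the 7 and 33 genes in all, against 19 without it.

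Jph2 and Pilra were the members whose E0771 MRTFB libraries did not overlap the controls. The share of all genes without overlap was not counted. Jph2 had 30, 44 and 56 reads in MRTFB libraries and 9, 12 and 19 in controls, a log2 difference of 1.75 (95% interval 1.03 to 2.46; limma adjusted p = 0.12). Pilra had 6, 16 and 29 reads in MRTFB libraries and 3, 5 and 6 in controls, a log2 difference of 1.56 (0.57 to 2.55; limma adjusted p = 0.753). Dnase1l3 had 3, 3 and 7 reads in MRTFB libraries against 1, 0 and 4 in controls, and Cbr2 had 148, 201 and 137 against 111, 156 and 84, with overlapping groups in both.

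For the remaining 3 genes the MRTFB libraries overlapped the controls. Hopx had 76, 101 and 112 reads in MRTFB libraries and 111, 119 and 76 in controls, a log2 difference of 0.03 with an interval of -0.45 to 0.51. Apol10b had 67, 73 and 127 reads against 70, 38 and 106, a log2 difference of 0.48 (-0.30 to 1.25). Plac8 had 0, 0 and 1 reads in MRTFB libraries and 0, 0 and 1 in controls, and its interval of -0.89 to 0.97 is wide because both groups were near 0.

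The MRTFA and MRTFB libraries of E0771 differed for all 7 genes. Tested directly, MRTFB was lower than MRTFA in 7 of 7, where 19.1% of genes were called lower and 14.5% higher. Pilra, Plac8 and Dnase1l3 would not have passed the filter without their MRTFA libraries, so for them this is a description. Under upper-quartile scaling the split over all genes was 2282 lower and 2644 higher, against 2514 and 1916 with the deposited scaling, and the 7 genes remained lower. With the replicate number as a block limma called 5780 genes in all, against 4430 without it, and the 7 were again lower. The log2 difference of MRTFB against MRTFA was -8.51 for Plac8, -6.40 for Pilra, -6.37 for Dnase1l3, -6.07 for Apol10b, -4.45 for Cbr2, -2.76 for Hopx and -2.27 for Jph2, with limma adjusted p-values of 3.15e-07 to 3.82e-04. The MRTFA and MRTFB comparisons with control share the same 3 control libraries. In E0771 Mkl1 averaged 13728 scaled reads with MRTFA and 1349 in controls. Mkl2 averaged 2158 with MRTFB and 1344 in controls. The part of transgene level in the difference between MRTFA and MRTFB libraries was not tested.

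In B16F10, the highest MRTFB values of the 7 genes all came from replicate 3. Pilra had 5, 2 and 50 reads in MRTFB libraries and 0, 1 and 0 in controls. Jph2 had 6, 4 and 78 reads in MRTFB libraries and 6, 0 and 8 in controls, and Hopx had 1, 2 and 9 in MRTFB libraries and 0, 0 and 0 in controls. The groups did not overlap for Pilra and Hopx, and they overlapped for Jph2. Here too the share of all genes without overlap was not counted. The control libraries of this comparison were used in choosing the genes.

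None of the 7 was called with MRTFB in B16F10 by limma, where 0.0148% of genes were called higher and 0.111% lower. In this line 6 of the 7, all but Cbr2, passed the filter through their MRTFA libraries alone. The rule also looked for low values in these same controls. The calls and p-values of the 7 in this comparison are therefore a description and cannot serve as support. Pilra had a log2 difference of 2.95 (95% interval 1.09 to 4.80; limma adjusted p = 0.290) and Hopx of 1.97 (0.75 to 3.19; limma adjusted p = 0.282), and these 2 had an unadjusted p under 0.05. The edgeR test called 0 of the 7 and DESeq2 called 1, Pilra (adjusted p = 0.0465). With the replicate number as a block limma called 2 of the 7, Pilra (adjusted p = 0.0461) and Hopx (adjusted p = 0.0471), and 603 genes in all, against 17 without it. Jph2 had a log2 difference of 1.85 (-0.47 to 4.17; limma adjusted p = 0.682), and without MRTFB replicate 3 its value was 0.60, while that of Pilra was 1.75 and that of Hopx 1.29.

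The other 4 genes showed less with MRTFB. Plac8 had 0, 0 and 1 reads and Dnase1l3 had 0, 0 and 3 in MRTFB libraries, with 0 in all controls of both genes. Apol10b had 0, 1 and 5 reads in MRTFB libraries against 0, 0 and 3 in controls, and Cbr2 had 52, 39 and 112 against 41, 23 and 123. MRTFB and control libraries overlapped for these 4, and no difference was detected. For Plac8, Dnase1l3 and Apol10b, near 0 in both groups, depth limits what can be seen. Cbr2 averaged 67.4 ± 39.1 scaled reads with MRTFB and 59.7 ± 50.7 in controls (SD, n = 3 each).

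Expressed as a percentage of the B16F10 MRTFA mean, MRTFB replicates 1, 2 and 3 reached 1.47, 1.06 and 20.1% for Jph2. The same percentages were 0.72, 0.31 and 7.61% for Pilra, and 0.88, 1.90 and 8.28% for Hopx. Contractile genes were highest in the same library: Acta2, smooth muscle actin, reached 6.84, 3.81 and 49.7%, and Tagln, an actin-binding protein of smooth muscle, 10.99, 7.98 and 82.1%. The summed scaled reads of the 16 contractile genes were 52152, 51258 and 104159 in MRTFB libraries and 46353, 47237 and 59407 in controls. Relative to MRTFA replicate 3 alone, MRTFB replicate 3 reached less: 14.4% for Jph2, 6.32% for Pilra, 6.26% for Hopx, 38.4% for Acta2 and 67.4% for Tagln. What sets MRTFB replicate 3 apart was not tested. In E0771 the MRTFB replicates were closer to one another, with Jph2 at 15.1, 18.6 and 27.7%, Hopx at 12.5 and 13.9% in replicates 1 and 2 and higher in replicate 3, and Pilra at 0.50, 1.11 and 2.36% of the MRTFA mean. The 16 contractile genes had a median log2 difference of 1.46 with MRTFB against control in E0771 and of 1.32 in B16F10. In E0771 limma called 6 higher, where 0.136% of all genes tested were called higher. There edgeR called 6, DESeq2 9 and limma with the replicate block 7, and 12 had an unadjusted p under 0.05. In B16F10 limma and edgeR called 0, DESeq2 3 and limma with the replicate block 11, and 6 had an unadjusted p under 0.05. Over all genes in B16F10, limma called 17, DESeq2 179 and limma with the block 603. The medians over all genes were -0.01 in E0771 and 0.00 in B16F10.

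**Figure D3:**
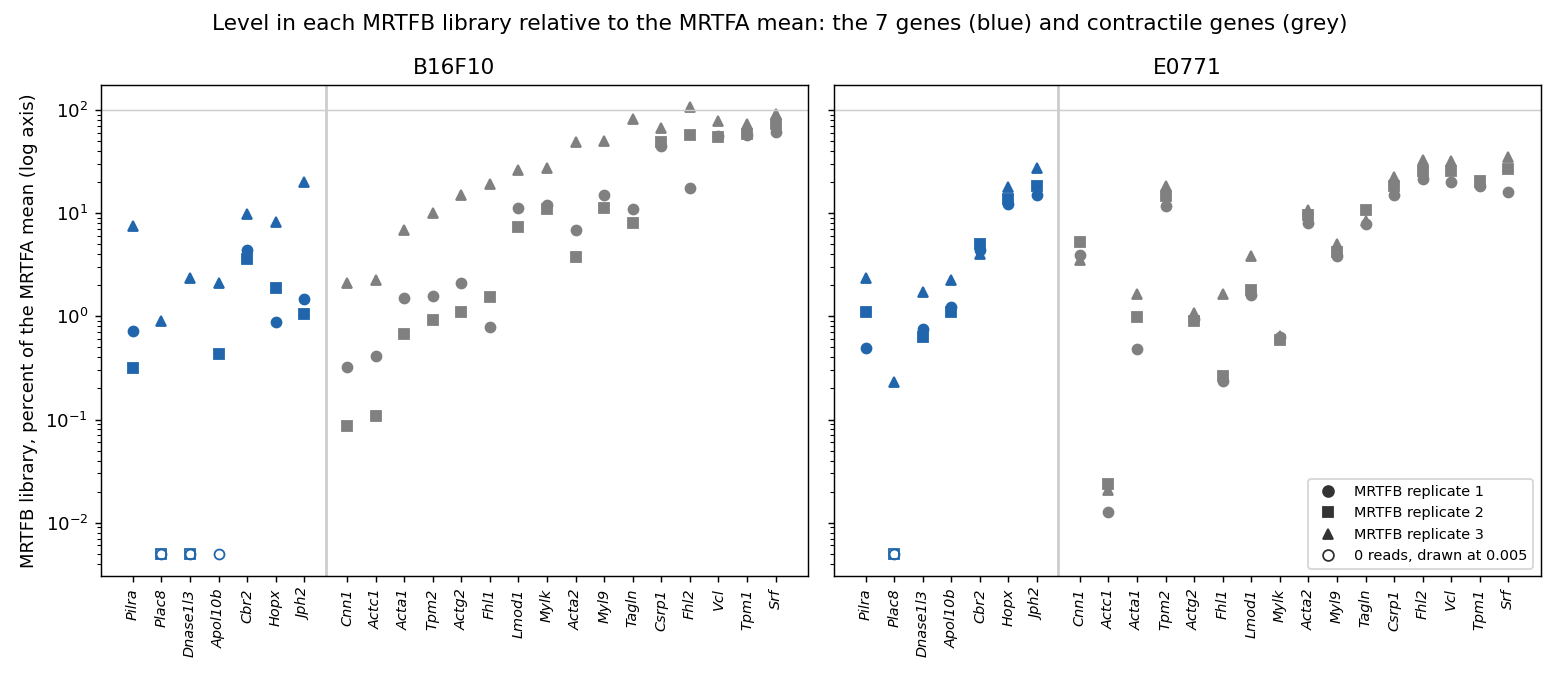
Level of each gene in each MRTFB library as a percent of the MRTFA mean of the same line (log axis), for the 7 genes (blue) and the 16 contractile genes (grey); open symbols are libraries with 0 reads, drawn at 0.005. In B16F10 MRTFB replicate 3 (triangles) is the highest MRTFB library for the 7 genes, for example 20.1% for Jph2 against 1.47 and 1.06%.

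Relatives of the 7 genes are given with the same backgrounds for MRTFA against control, 20.3% higher and 18.1% lower in E0771 and 1.34% higher in B16F10. Of the 8 other apolipoprotein L genes measured, 5 were tested in each line and 1, Apol7b, was higher with MRTFA in both lines. It had 4.34 as a log2 difference in B16F10 (limma adjusted p = 5.68e-04) and 5.38 in E0771 (adjusted p = 7.84e-05), with means of 20.5 scaled reads in B16F10 MRTFA against 0 in B16F10 controls. Apol7b passed the filter in both lines through its MRTFA libraries alone, so its calls are a description. The family median among 5 tested members was 1.53 in E0771 and 0.41 in B16F10, beside -0.02 and -0.01 over all genes. Apol9a had 48, 28 and 511 reads in B16F10 MRTFA and 43, 45 and 266 in B16F10 controls, and 150, 117 and 1010 in E0771 MRTFA and 48, 53 and 292 in E0771 controls, and in every group replicate 3 was the highest. The summed interferon-response genes were also highest in replicate 3 of every group, at 8552, 7194 and 31685 scaled reads in E0771 MRTFA and 5208, 4604 and 10203 in E0771 controls. Apol10b was highest in replicate 3 in every group except E0771 MRTFA, where replicate 2 was highest. In B16F10 controls and MRTFB libraries it held at most 5 reads. The part of the interferon genes in its level was not tested.

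Among the carbonyl reductases Dcxr, which encodes dicarbonyl and L-xylulose reductase, was higher with MRTFA in E0771 (2.23; limma adjusted p = 2.00e-04) and not in B16F10 (0.09; adjusted p = 0.984). Of the 4 other DNase genes tested, limma called 0 with MRTFA in either line; in E0771 the unadjusted p was under 0.05 for 2, Dnase1l1 and Dnase2a, and edgeR and DESeq2 called 1 each, while in B16F10 the corresponding counts were 0, 0 and 0. Pilra's relatives and ligands gave 0 higher and 1 lower of 2 tested in E0771, Cd99l2 (-0.40; limma adjusted p = 0.00478), and Pilrb1 had means of 11.1 scaled reads in E0771 MRTFA against 0.934 in controls. With the replicate block limma called 2 apolipoprotein L genes, 1 carbonyl reductase and 1 gene of the Pilra list in B16F10 MRTFA cells, against 1, 0 and 0 without it; edgeR and DESeq2 also called 1, 0 and 0, and 2, 2 and 1 had an unadjusted p under 0.05. Of the partners of Hopx, Srf was higher in E0771 MRTFA (2.18; limma adjusted p = 2.73e-04) and Hdac2 lower (-0.41; adjusted p = 0.0149), and neither was called in B16F10.

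The dyad is the junction of muscle plasma membrane and sarcoplasmic reticulum at which Jph2 acts. In E0771, limma called 8 of the 11 other dyad genes tested higher and 1 lower with MRTFA, where 20.3% of all genes were higher and 18.1% lower, with a median log2 difference of 1.44 beside -0.02 for all genes. Cav3, the muscle caveolin, had 5.11 and Cacna1s, the skeletal muscle calcium channel, 4.73, while Asph fell by 0.71 on the log2 scale. In B16F10, where 1.34% of all genes were called higher, limma called 2 of 10, Cacna1s at 4.96 (limma adjusted p = 0.00429) and Cav3 at 5.005 (adjusted p = 0.00458), and 4 with the replicate block. The contractile genes were called higher by limma in 16 of 16 in E0771 and 12 of 16 in B16F10 (14 with the block), with medians of 6.09 and 4.82. Of the cardiac muscle genes, limma called 6 of 8 tested higher in E0771 and 1 of 6 in B16F10, Myh6; in B16F10 edgeR and DESeq2 called 2 each and limma with the block 3. In E0771 Nppa, a natriuretic peptide of the atrium, had a log2 difference of 6.12 and Actn2, the alpha-actinin of striated muscle, 6.77. Cacna1s and Cav3 passed the filter in both lines through their MRTFA libraries alone. So did Myh6 and Cnn1 in B16F10, and Nppa and Actn2 in E0771. Other listed genes this low can do so too. The calls of such genes, and their part in the counts, are a description.

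**Figure D4:**
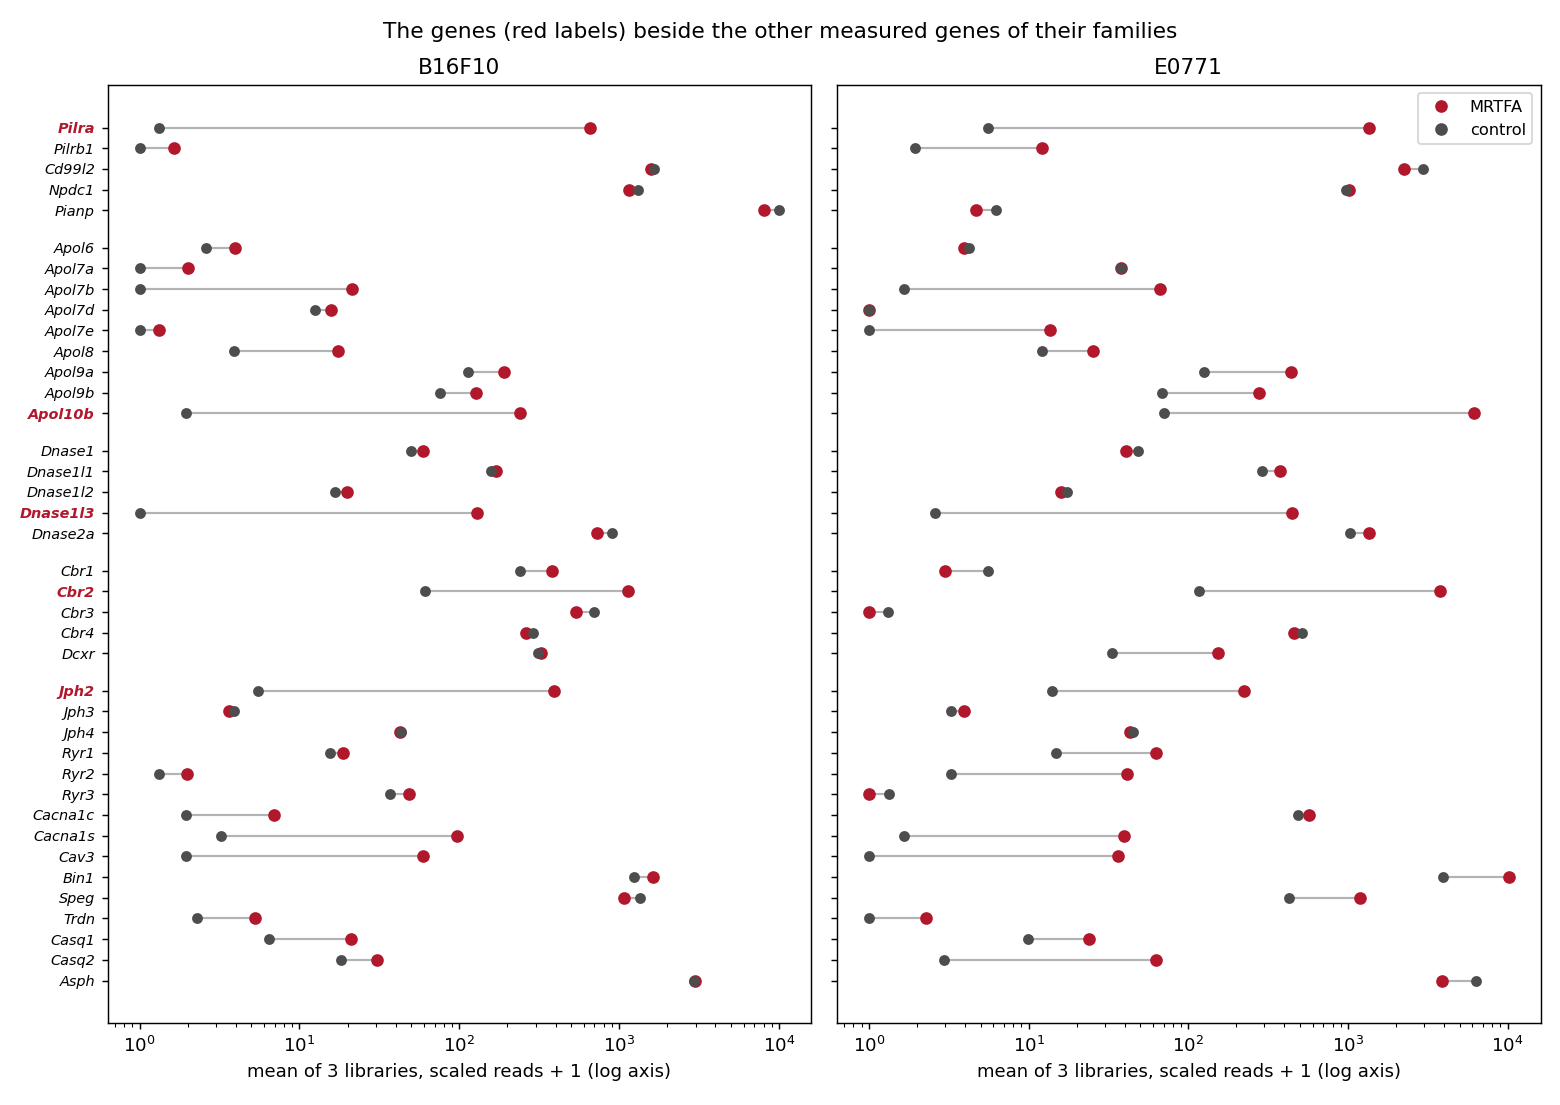
Mean scaled reads plus 1 (log axis) with MRTFA (red) and control (dark) in B16F10 (left) and E0771 (right), for 5 of the 7 genes (red labels) and the other measured genes of their families; each point is the mean of 3 libraries. The 5 labelled genes show long gaps in both lines, as do Apol7b, Cacna1s and Cav3, whereas the other DNase genes lie close together.

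Pilra, Plac8 and Dnase1l3 are usually found in immune cells and Cbr2 in lung, so markers of those cells were measured. Of 16 myeloid markers 10 were in the table, and their sum was 93.8 to 151.6 scaled reads in B16F10 MRTFA libraries, 80.1 to 106.2 in MRTFB and 52.6 to 126.9 in controls. In E0771 the sum was 313.0 to 380.3 in MRTFA, 250.4 to 338.7 in MRTFB and 201.3 to 380.3 in controls. Of the myeloid markers 4 were tested in B16F10, with a median log2 difference of 0.67 with MRTFA beside -0.01 for all genes; limma, edgeR and DESeq2 called 0 of them, and 1 had an unadjusted p under 0.05. Cd68, a scavenger receptor of macrophages, averaged 35.9 scaled reads in B16F10 MRTFA and 24.4 in controls, Lyz2, a lysozyme of macrophages, 31.2 and 21.4, and Coro1a, which leukocytes and other cells express, 23.6 and 12.8. Fcer1g, an Fc receptor chain, averaged 13.3 and 19.2. Fcgr3 had 0 reads in every B16F10 MRTFA and control library, and Itgax had 1 read over the 3 B16F10 MRTFA libraries and 0 over the controls. In E0771 MRTFA cells the median of the 5 tested was -0.12 beside -0.02 for all genes; Coro1a was higher (5.37; limma adjusted p = 3.38e-06) and Lyz2 lower (-0.69; limma adjusted p = 0.0395), 1 marker each way of 5 tested. In E0771 Coro1a passed the filter through its MRTFA libraries alone, so its call is a description. Of 10 lung and airway markers 3 were in the table, and they summed to 53.8 to 84.7 scaled reads in B16F10 MRTFA and 55.8 to 73.5 in B16F10 controls. The part of such cells in the values of the 7 genes was not tested.

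Other genes met the same description. With a B16F10 control mean of at most 10 scaled reads, an MRTFA mean of at least 20 and no overlap, 131 of 5856 low genes qualified. They included 6 of the 7 (not Cbr2) and 125 other genes, 10 of which are on the contractile, cardiac or dyad lists. These lists are short, and further muscle genes among the 125, such as Myh11, Ckm and Tnnt3, are on none of them. Pilra ranked 6 and Jph2 7 by MRTFA mean, after Acta1, Actc1, Myh11, Cnn1 and Fhl1; Apol10b ranked 15, Dnase1l3 20, Plac8 22 and Hopx 23. Of the 125 other genes, 100 were called higher with MRTFA in E0771, 6 were tested and not called higher, and 19 were too low there to be tested. Genes this low can pass the filter through their MRTFA libraries alone, so these counts are a description.

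**Figure D5:**
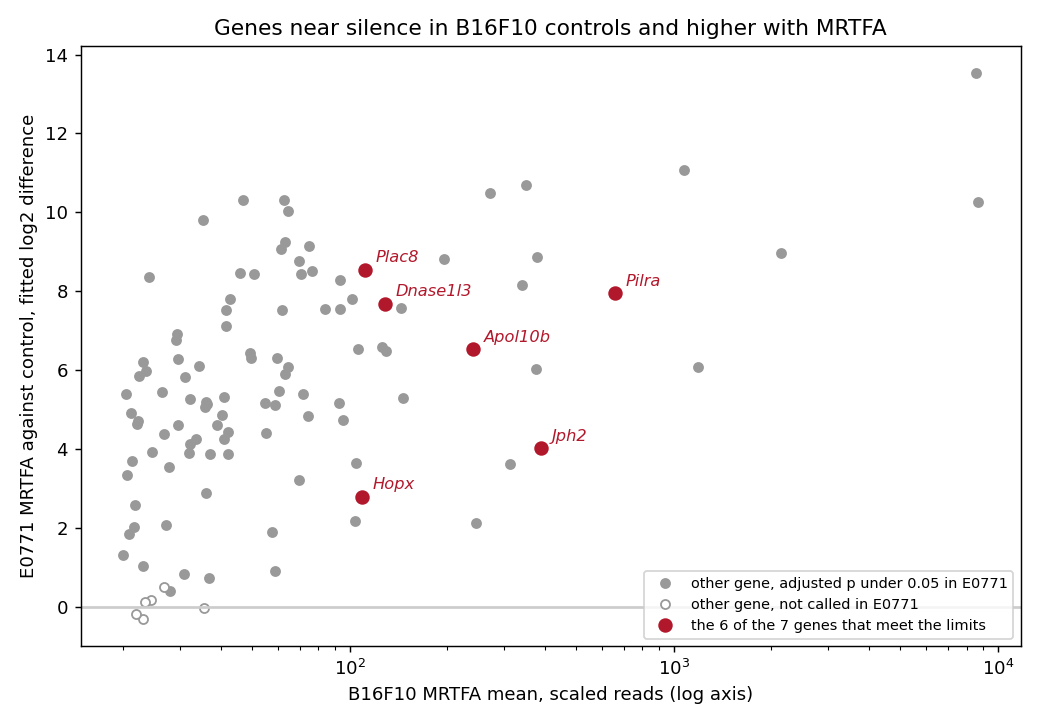
Mean scaled reads in B16F10 MRTFA libraries (log axis) against the fitted log2 difference of E0771 MRTFA and control, for the genes that were near silence in B16F10 controls and tested in E0771. The 6 genes named in red lie within the spread of the 106 other genes that could be tested there; filled points are the 100 called higher.

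By Pearson correlation of log2 values over the 18 libraries, the genes most like each of the 7 included several muscle genes. Pilra was closest to Acta1 (r = 0.979), Myh11 (0.978) and Kcnmb1 (0.975), and Jph2 to Cnn1 (0.948), Actg2 (0.925) and Acta1 (0.915). Plac8 was closest to Myl1 (0.994), Ntng1 (0.992) and Agxt2 (0.991), Dnase1l3 to Mrvi1 (0.987), Cyp2b23 (0.979) and Myl1 (0.965), and Hopx to Tpm2 (0.984), Synpo2 (0.966) and Ankrd1 (0.956). Apol10b was closest to Tm6sf1 (0.983), Ptgis (0.982) and Ldb3 (0.976), and Cbr2 to Mrvi1 (0.979), Lrrc27 (0.968) and Fbn1 (0.967). Between the 7 genes r was 0.673 to 0.976 over 21 pairs. These coefficients describe points that share libraries and the same 6 groups, and a high r follows from a common difference between groups. Over the 9 B16F10 libraries alone, 5 of the 21 named genes were again among the closest 3.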

How the data were processed

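Total RNA of 18 libraries from 2 mouse lines was sequenced. The tools named per the submitters' processing notes are cutadapt 1.6, STAR 2.5.0a, HTSeq 0.5.3 and DESeq, with the build mm10; the DESeq version, the annotation release and the strand setting are not known. The deposited values are a signal, read counts divided by the library's DESeq size factor by the authors. Every value divided by its column's smallest step came out whole within 0.001, so whole reads were recovered, and the size factors recomputed from them match the steps. Reads of same-group libraries differed by more than sampling noise in all 18 pairs (chi-square per degree of freedom 11.7 to 59.2), so each counts once. No column lacked a sample.

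limma 3.58.1 (trend) was fitted to log2(scaled value + 1), separately per line over 9 libraries, for genes with at least 10 scaled reads in at least 3 libraries; a gene was called where the p adjusted by Benjamini-Hochberg was under 0.05. A fold change on this scale understates the change of low genes. edgeR 4.0.16 and DESeq2 1.42.0 were run on the recovered reads, with other alternatives in the closing section. The code was tested on simulated data. All 7 members, the gene lists and the named-gene rule were chosen with earlier results of these data known. Named genes are the 7 members, the 3 genes most like each, family genes where measured, up to 3 genes of other lists, and the 5 most abundant of the other silent genes; a few others, such as Tagln and several myeloid markers, were named after their values were seen.

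Same-numbered libraries deviate together (r of deviations from group means 0.508, 0.459 and 0.553 in E0771 MRTFB and control, 0.382, 0.435 and 0.486 in B16F10 MRTFB and control, 0.353, 0.416 and 0.567 in B16F10 MRTFA and control, 0.134, 0.474 and 0.361 in E0771 MRTFB and MRTFA), so their blocked fits stand beside the results. In E0771 MRTFA and control r was 0.0842, 0.461 and 0.525 for replicates 1, 2 and 3, so the libraries deviated together in replicates 2 and 3 and hardly in replicate 1. The r of 0.134 for replicate 1 of E0771 MRTFB and MRTFA was low too. The labels give these samples only a common number. Of the deposited IDs 18827 of 18909 are in GENCODE M21. Ratios against 1 to 3 control reads carry exact binomial intervals and ratios against 0 use a floor of 3 reads over the group; both cover counting error only. R 4.3.3, Python 3.11.15, pandas 2.3.3 and matplotlib 3.10.9 were used.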

Additional observations from a re-analysis of the deposited data

Results flagged for a closer look

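Among 121 genes of the gene lists and the 7 members, screened over both comparisons with control, 3 had every library of a group move one way in B16F10 and the opposite way in E0771, none of them one of the 7 members; the difference between the lines was not tested. For Speg the MRTFA over control ratio of means was 0.791 in B16F10 and 2.80 in E0771. For Coro1a the MRTFB over control ratio was 0.337 in B16F10 and 3.72 in E0771. It held 13 reads over the MRTFB libraries and 40 over the controls in B16F10, and 27 and 8 in E0771. For Cdh1 the MRTFB over control ratio was 0.297 in B16F10 and 2.24 in E0771, where it held 29 reads with MRTFB and 14 in controls. The screen was not run over all genes, so how often a gene meets it without a true difference is not known.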

How the results depend on the processing

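The 7 genes stayed higher with MRTFA and lower with MRTFB than with MRTFA in E0771 under every alternative tried (pseudocount 0.5 or 5, no filter, upper-quartile scaling, edgeR, DESeq2, replicate block, and leaving out each library). With MRTFB against control, DESeq2 called 2 of the 7 in E0771 and 1 in B16F10, and the block 2 in B16F10. Genes called in E0771 with MRTFB were 51 with DESeq2, 33 with the block and 7 to 15 without 1 library, against 19. In B16F10 with MRTFB they were 179 with DESeq2, 603 with the block and 0 to 131 without 1 library, against 17: 0 without MRTFB replicate 1, MRTFB replicate 2 or control replicate 1, 2 without control replicate 2, 15 without MRTFB replicate 3 and 131 without control replicate 3. In B16F10 with MRTFA they were 324 without the filter, 357 with DESeq2, 855 with the block and 122 to 324 without 1 library, against 209. The causes were not tested. In E0771 with MRTFA the block called 6405 genes, against 5064; whether numbers pair those samples is a hint from the data only. Fits without 1 library kept the tested genes of the full fit, a choice made after seeing that a new filter dropped members; a group left with 2 libraries is assumed to vary like the others. Counts near 0 limit every ratio in B16F10 controls.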
